A study of Homo sapiens with 32 samples.

Results

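TBX3 (ENSG00000135111), PLCE1 (ENSG00000138193) and ACADVL (ENSG00000072778) were followed through the differentiation of human embryonic stem cells toward β-like cells. These 3 of the 7978 genes with a merged m6A peak were chosen because a peak of each gained reads in the m6A antibody library over the input library at S3 against S0. All their merged peaks were then taken, which gave 2 peaks for TBX3, 3 for PLCE1 and 5 for ACADVL, or 10 of the 26104 peaks of the series. The peaks that met the rule were TBX3 1651, PLCE1 8201 and ACADVL 2101, 3 of the 8 peaks (0.0306%) called higher at S3 among all peaks. Of these, PLCE1 8201 lay nearest the threshold on the adjusted p, and ACADVL 2101 had a fitted log2 gain of 2.58 (SE 0.50). The next member outside was PLCE1 3401, with 4.09 (SE 1.12), which did not lie close to the threshold.

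H1 and MEL1 are established lines of undifferentiated human embryonic stem cells, and no genetic change is named for them in these samples. Cells were taken undifferentiated (S0), as posterior foregut (S3), as pancreatic progenitors (S4) and as immature β-like cells (S6), in 2 replicates per line and stage. Fragmented mRNA of each of the 16 preparations was sequenced before (input) and after (IP) pulldown with an antibody against N6-methyladenosine, which gave 32 libraries. No sort is described for these cells, so a preparation may hold several cell types, and the stage names describe the culture rather than a pure population. Among input reads, 6 of 6 posterior foregut markers were called higher and 5 of 6 markers of undifferentiated cells lower at S3 against S0, where 28.8% of all genes were called. The markers of undifferentiated cells took 0.340% to 0.353% of H1 input reads at S0, 0.167% to 0.173% at S3 and 0.222% to 0.225% at S4. In MEL1 they took 0.392% to 0.393%, 0.0334% to 0.0362% and 0.043% to 0.0444%. Pancreatic progenitor markers took 0.0085% to 0.01% in H1 at S4 and 0.0031% to 0.0035% at S6. In MEL1 they took 0.0039% to 0.0041% and 0.0132% to 0.0133%. At S6 against S4, where 5.18% of all genes were called and 2.85% called higher, 2 of the 4 β-cell markers with counts were called higher, CHGA, a protein of secretory granules, and INS-IGF2, the read-through transcript of the insulin locus, and so were 2 of the 3 neural markers with counts, NEFL and STMN2. At S3 against S0, INS-IGF2 was already called higher (log2 7.98) and CHGA was called lower (-3.88), so a gain of INS-IGF2 was not particular to S6. Input libraries held 2652830 to 6879256 reads and IP libraries 2378881 to 15674899, of which the MEL1 S4 libraries, with 2483580 and 2378881, were the shallowest.

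N6-methyladenosine (m6A) is the most common internal modification of mRNA, written by a complex around METTL3 and METTL14 and read by YTH-domain proteins that affect splicing, translation and decay of the transcript. TBX3 is a T-box transcription factor, best known as a repressor, which acts in the early embryo, the limb, the heart and the liver bud. PLCE1 encodes phospholipase C epsilon, which cleaves a membrane phosphoinositide into diacylglycerol and inositol trisphosphate and is a target and a regulator of Ras-family GTPases. ACADVL encodes the very long-chain acyl-CoA dehydrogenase of mitochondria, which catalyses the opening step of the β-oxidation of long fatty acids.

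Peaks are named here by the gene and the number that follows it in the count table. Levels are counts scaled to a common library size (CPM) by the TMM method, and IP over input is the log2 ratio of those 2 levels in a preparation, with a prior count of 1. A log2 IP over input above 0 means a larger share of the IP library than of the input library, so a peak can gain IP reads and still lie below its input. Since the members were chosen on S3 and S0, values that use those stages are given without a test. Changes between S4 and S6, and IP over input within each of these stages, did not enter the choice and were tested with edgeR over all peaks, and a peak counted as called where its change reached 2-fold and its p-value, adjusted by Benjamini and Hochberg's method, lay below 0.1. In these cultures a change in the level of a transcript in each cell and a change in the share of cells that express it cannot be told apart.

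TBX3 was close to undetected in undifferentiated cells and carried IP reads at each later stage. In peak TBX3 1651 the IP libraries held 0 reads in all 4 S0 preparations, against 122 and 115 at S3 in H1 and 546 and 435 at S3 in MEL1. At S4 the same peak held 58 and 74 IP reads in H1 and 35 and 69 in MEL1, and at S6 36 and 81 in H1 and 86 and 59 in MEL1. No library of a later stage overlapped those of S0, which at S3 goes with the choice of the peak. How many of all peaks separate in this way was not counted. The mean IP level was 22.7 ± 17.9 CPM at S3, 9.77 ± 6.56 CPM at S4 and 5.27 ± 1.90 CPM at S6 (SD, n = 4 each). Against a floor of 3 reads in each S0 library, the IP level was at least 102-fold higher at S3, at least 44.0-fold higher at S4 and at least 23.7-fold higher at S6. The wide SD at S3 lay between the lines, since the MEL1 libraries stood above both H1 libraries.

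The input of TBX3 was also higher after S0, so that IP reads and input were both gained. Peak TBX3 1651 held 1 and 0 input reads in H1 and 1 and 6 in MEL1 at S0, and 10 and 8 in H1 and 25 and 41 in MEL1 at S3. Input reads at S4 were 2 and 21 in H1 and 17 and 22 in MEL1, and at S6 they were 13 and 8 in H1 and 6 and 9 in MEL1. With so few reads at S0, the ratio of IP to input had little precision there. Log2 IP over input was -1.71 ± 1.5 at S0 and 2.03 ± 0.37 at S3, then 1.24 ± 1.24 at S4 and 0.88 ± 0.57 at S6 (SD, n = 4 each). This difference between S3 and S0 is what the peak was chosen for, and in 1 S0 library, with no input or IP read, the prior count alone set the ratio.

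The second TBX3 peak behaved differently in the 2 lines at S4. Peak TBX3 5201 held 1 and 1 IP reads in H1 and 0 and 0 in MEL1 at S0, and 36 and 45 in H1 and 100 and 93 in MEL1 at S3. At S4 it held 0 and 0 IP reads in H1, but 8 and 18 in the 2 much shallower MEL1 libraries. At S6 reads were present again in both lines, with 18 and 16 in H1 and 27 and 30 in MEL1. The H1 S4 libraries were not short of TBX3 reads in general, since the other peak held 58 and 74 reads in them. A count of 0 allowed up to 0.265 and 0.219 CPM in those 2 libraries (3 reads each). Against that floor, the mean IP level of H1 was at least 10.6-fold higher at S3 and at least 4.82-fold higher at S6. Input held only 0 to 6 reads of this peak in any library.

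PLCE1 had few or no IP reads at S0, and in H1 its IP reads were fewer at S4 than at S3 and S6. Its summed input at S0 was 1 read in 3 libraries but 15 reads, or 3.26 CPM, in MEL1 replicate 2, which lies above the 0.988 to 2.27 CPM of the 6 later H1 libraries. The main peak, PLCE1 3401, held 3 and 0 IP reads in H1 and 6 and 0 in MEL1 at S0. At S3 it held 129 and 137 IP reads in H1 and 430 and 531 in MEL1. At S4 the counts were 23 and 25 in H1 and 145 and 19 in MEL1, and at S6 they were 112 and 179 in H1 and 477 and 340 in MEL1. The ranges at S0 and at any later stage did not overlap, in a gene chosen for a gain at S3 over S0. The 2 MEL1 S4 libraries, of almost equal depth, differed from each other more than any other pair of replicates after S0. The mean IP level was 0.175 ± 0.211 CPM at S0 and 22.9 ± 17.1 CPM at S3, then 12 ± 18.0 CPM at S4 and 23.9 ± 16.6 CPM at S6 (SD, n = 4 each). The mean at S6 was 136-fold that at S0, which rested on 9 IP reads in 4 libraries.

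The other PLCE1 peaks held fewer IP reads and none at S0, although PLCE1 8201 held 7 input reads in MEL1 S0 replicate 2. Peak PLCE1 1051 held no IP or input read in any S0 library, 30 to 82 IP reads at S3, 3 to 28 at S4 and 25 to 63 at S6. Peak PLCE1 8201 held no IP read at S0, 26 to 132 at S3, 7 to 36 at S4 and 26 to 117 at S6. Against the floor of 3 reads per S0 library, the IP level at S6 was at least 17.3-fold higher in PLCE1 1051 and at least 21.7-fold higher in PLCE1 8201. Peak PLCE1 3401 took 67.8% to 74.4% of the IP reads of the gene at S3 and S6 (lowest and highest of 8 libraries). At S4 in H1 its share was 45.1% (95% Wilson interval 32.3% to 58.6%) and 52.1% (38.3% to 65.5%), and that of PLCE1 8201 was 43.1% (30.5% to 56.7%) and 41.7% (28.9% to 55.7%). In the 4 H1 libraries of S3 and S6 the share of PLCE1 8201 was 13.2% to 16.3%. In MEL1 at S4 the share of PLCE1 8201 was 17.2% and 17.1%, and that of PLCE1 3401 was 69.4% and 46.3%, so the larger share of PLCE1 8201 at S4 was not seen in that line. These intervals cover counting error only.

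**Figure D1:**
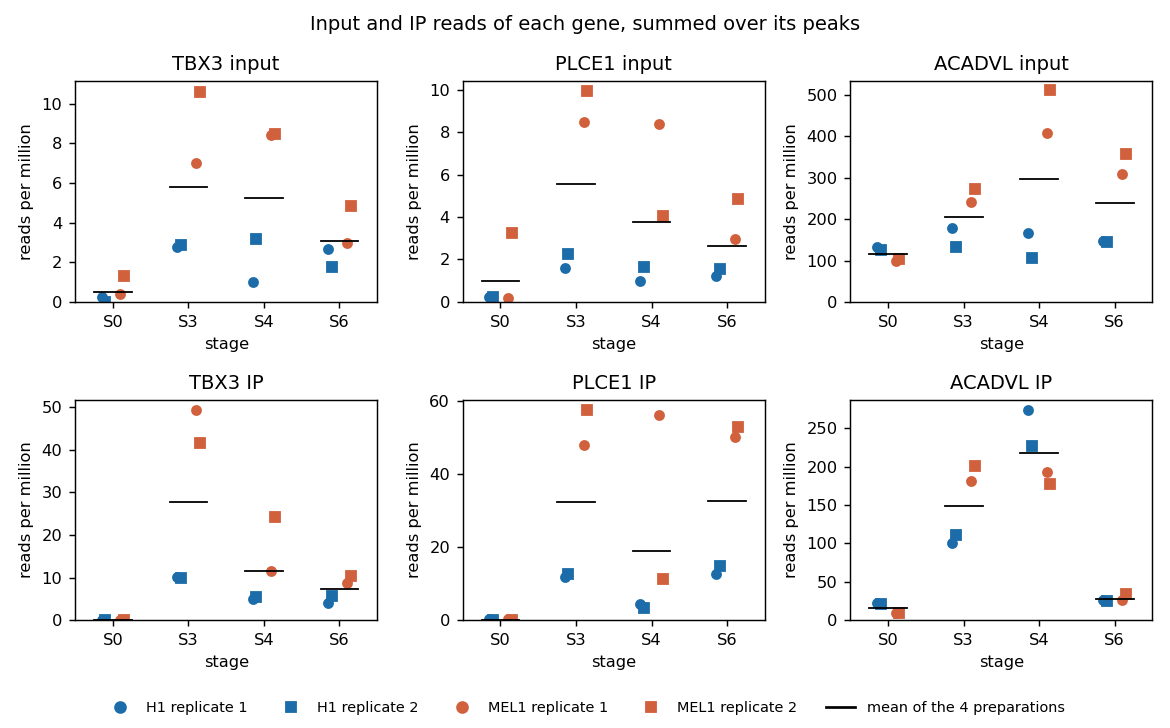
Input reads (upper row) and IP reads (lower row) of each gene summed over its peaks, in CPM on a linear axis from 0, at each stage. Points are single preparations, coloured by line, and the bar is the mean of 4 preparations. TBX3 and PLCE1 had at most 0.425 CPM in IP at S0, with a single PLCE1 input library at 3.26 CPM, and ACADVL had input at every stage while its IP reads were high only at S3 and S4, between 100.3 and 274 CPM, against 9.07 to 33.9 CPM at S0 and S6.

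ACADVL was detected in input at every stage, and its IP reads were many times higher at S3 and S4 than at S0 and S6. In peak ACADVL 2101, which took most reads of the gene, the IP level was 16.8 and 14.9 CPM in H1 and 7.72 and 8.89 CPM in MEL1 at S0. It was 96.7 and 108 CPM in H1 and 169.8 and 196 CPM in MEL1 at S3, and 234 and 198 CPM in H1 and 178 and 163 CPM in MEL1 at S4. At S6 it was back at 23.5 and 21.2 CPM in H1 and 24.5 and 32.6 CPM in MEL1. Each of the 8 libraries of S3 and S4 lay above each of the 8 libraries of S0 and S6. The part of this between S3 and S0 goes with the choice of the peak, and how many of all peaks separate in this way was not counted. Relative to S0, the mean IP level was 11.8-fold at S3, 16-fold at S4 and 2.10-fold at S6.

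The input of peak ACADVL 2101 was 77.2 to 91.3 CPM in the 4 S0 libraries. In H1 it stayed between 78.5 and 120.4 CPM at the later stages, while in MEL1 it was 206 and 195 CPM at S3, 315 and 279.9 CPM at S4 and 248 and 228 CPM at S6. The 2 lines therefore separated in input after S0. In H1 the input was 80.6 and 78.1 CPM at S0, 120.4 and 93.4 CPM at S3 and 101 and 78.5 CPM at S4. Log2 IP over input was -2.82 ± 0.61 at S0 and -0.09 ± 0.25 at S3, then 0.24 ± 1.20 at S4 and -2.57 ± 0.62 at S6 (SD, n = 4 each). Even at S3 the IP level of this peak only reached that of its input, and of the 16 preparations only the 2 of H1 at S4, with 1.21 and 1.33, lay clearly above 0.

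The other 4 ACADVL peaks held few IP reads for their input, except ACADVL 251 in H1 at S4. Their mean log2 IP over input ran from -6.85 to -2.01 over the stages. Peak ACADVL 2101 took 69.9% to 98.0% of the IP reads of the gene in all 16 preparations and 48.3% to 82.4% of its input reads. Peak ACADVL 251 was highest at S4 in H1, where it held 422 and 369 IP reads against 37 to 83 in the 6 other H1 libraries. In MEL1 it held 15 and 38 IP reads at S4.

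**Figure D2:**
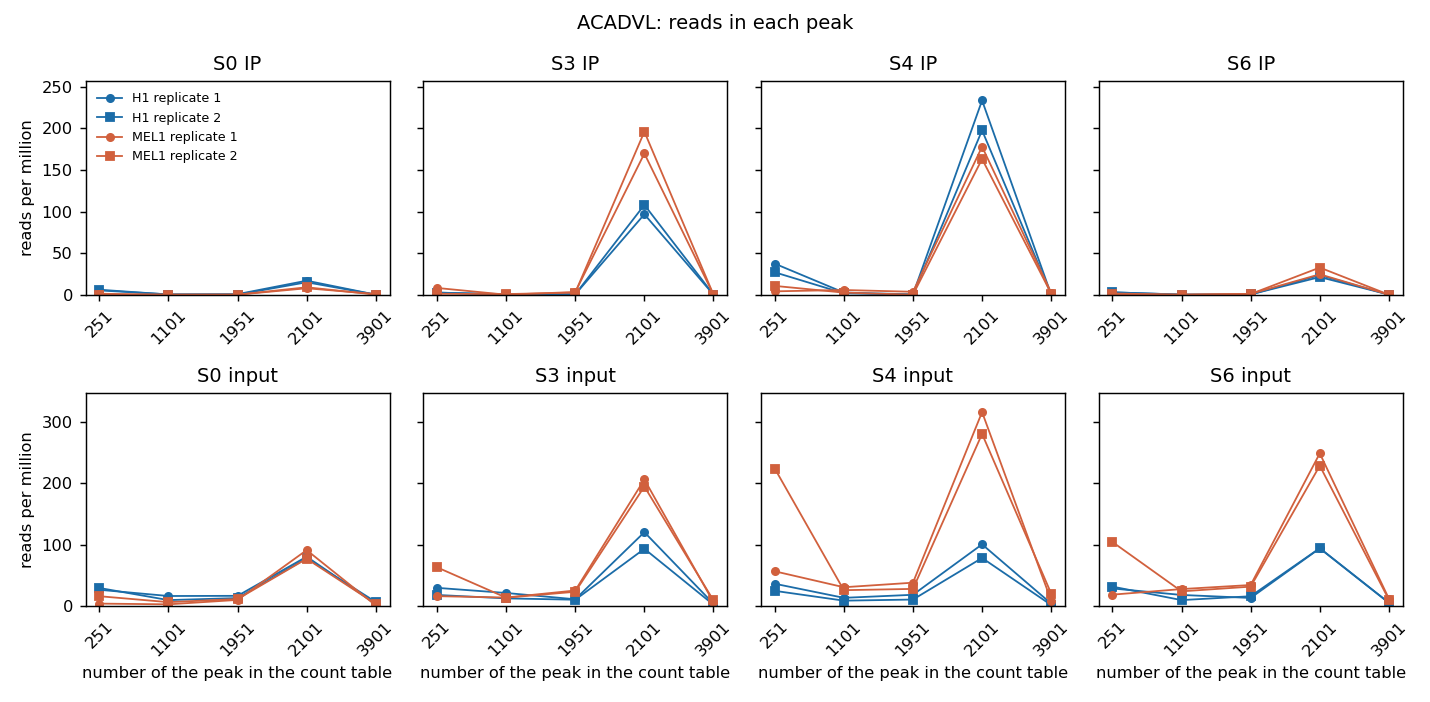
IP reads (upper row) and input reads (lower row) in each of the 5 ACADVL peaks, in CPM on a linear axis from 0, with a column of panels for each stage and a line for each preparation. Peak 2101 stands above the other peaks in all panels of IP, between 163 and 234 CPM at S4 and between 21.2 and 32.6 CPM at S6.

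**Figure D3:**
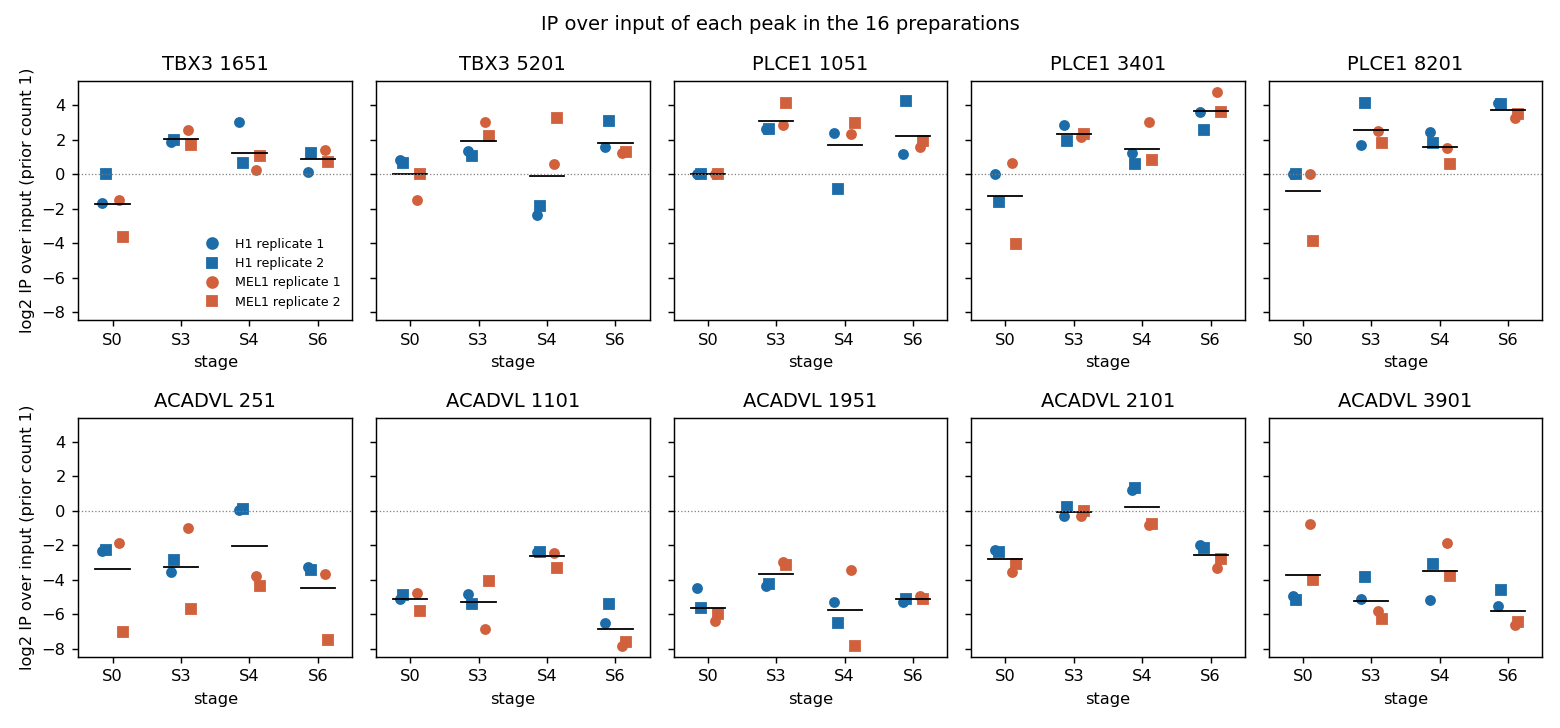
Log2 IP over input (prior count 1) of the 10 peaks in the 16 preparations, by stage, with the bar at the mean of 4. The TBX3 and PLCE1 peaks lie mostly above 0 from S3 on, and the ACADVL peaks lie mostly below 0, with ACADVL 2101 near 0 at S3 and S4.

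In the fit over both lines, the PLCE1 peaks were called above input at S4 and S6, the ACADVL peaks were depleted at S6, and the TBX3 peaks did not pass the test at either stage as fitted. At S4, 7 of the 10 peaks were called, 3 higher and 4 lower, where 52.9% of all peaks were called, 20.8% higher and 32.1% lower. PLCE1 3401 had a log2 IP over input of 1.94 (SE 0.68, adjusted p = 0.019), PLCE1 8201 of 1.91 (SE 0.79, adjusted p = 0.046) and PLCE1 1051 of 1.90 (SE 0.85, adjusted p = 0.066). Within the lines, PLCE1 3401 and PLCE1 1051 stood at 2.56 and 2.70 in MEL1 (adjusted p = 0.0077 and 0.034) but at 0.95 and 0.35 in H1 (adjusted p = 0.38 and 0.83). PLCE1 8201 stood at 2.44 in H1 (adjusted p = 0.071) and 1.38 in MEL1 (adjusted p = 0.24). Over all peaks at S4, 23.5% were called higher and 35.5% lower in H1, and 19.2% higher and 34.9% lower in MEL1. The peaks called lower at S4 were ACADVL 251, ACADVL 1101, ACADVL 1951 and ACADVL 3901, from -4.99 to -2.31. ACADVL 251 was lower in MEL1 (-4.27, adjusted p = 0.00027), whereas in H1 it stood at 0.06 (adjusted p = 0.95). ACADVL 2101 was not called at S4 over both lines, with a log2 of 0.17 (SE 0.35, adjusted p = 0.71), but it stood at 1.27 in H1 (SE 0.19, adjusted p = 2.6e-06) and at -0.80 in MEL1 (SE 0.19, adjusted p = 0.00084). TBX3 1651, at 1.03 (SE 0.53, adjusted p = 0.11), and TBX3 5201, at 0.73 (SE 1.05, adjusted p = 0.59), were not called, though TBX3 1651 passed with IP and input libraries scaled separately (adjusted p = 0.014). Within H1, TBX3 1651 was called higher (1.30, adjusted p = 0.074) and TBX3 5201, with 0 IP and 2 input reads in each library, lower (adjusted p = 0.010), while in MEL1 TBX3 1651 stood at 0.74 (adjusted p = 0.30) and TBX3 5201 was called higher (1.99, adjusted p = 0.092). The median over all peaks was -0.30 at S4 and -0.12 at S6. Without MEL1 S4 replicate 1, PLCE1 3401 (adjusted p = 0.28), PLCE1 1051 (0.20) and ACADVL 251 (0.11) were not called at S4, and without MEL1 S4 replicate 2 ACADVL 251 (adjusted p = 0.41) and PLCE1 1051 (adjusted p = 0.21) were not called. PLCE1 8201 was not called without H1 S4 replicate 2 (adjusted p = 0.11).

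At S6, 8 of the 10 peaks were called, 3 higher and 5 lower, where 63% of all peaks were called, 28.4% higher and 34.6% lower. The PLCE1 peaks were again those called higher, with a log2 IP over input of 3.58 for PLCE1 3401 (SE 0.71, adjusted p = 9.4e-05), 4.31 for PLCE1 8201 (SE 0.95, adjusted p = 0.00037) and 2.11 for PLCE1 1051 (SE 0.78, adjusted p = 0.023). PLCE1 8201 held 0 to 2 input reads in each S6 library, so its ratio rests on almost no input. All 5 ACADVL peaks were called lower, among them ACADVL 2101 at -2.62 (SE 0.37, adjusted p = 7.5e-07). TBX3 1651, at 0.88 (SE 0.55, adjusted p = 0.17), and TBX3 5201, at 1.81 (SE 0.99, adjusted p = 0.11), were not called, and both passed with IP and input libraries scaled separately (adjusted p = 0.066 and 0.069). TBX3 5201 also passed with only the S6 libraries (edgeR adjusted p = 0.043), with H1 libraries alone (0.034) and with IP libraries thinned to 1 depth (0.083). Within the lines it stood at 2.38 in H1 and 1.35 in MEL1. Without H1 S6 replicate 2, PLCE1 1051 was not called (adjusted p = 0.11).

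From S4 to S6, IP over input fell in 2 ACADVL peaks, and no peak of TBX3 or PLCE1 passed the test over both lines. This change between the stages is called the change in m6A here. By edgeR 2 of the 10 peaks were called lower and 0 higher (0 higher also at an unadjusted p under 0.05). Over all peaks 7.58% were called, 2.26% lower and 5.31% higher. At S4 over both lines, ACADVL 2101 was not called above its input (0.17) and ACADVL 1101 was called below it (-2.72). The authors list TBX3, PLCE1 and ACADVL among hypermethylated transcripts common to the stages of differentiation. The fall of ACADVL from S4 to S6 has the other direction. ACADVL 2101 fell by 2.79 on the log2 scale (SE 0.50, adjusted p = 0.0023), in both lines and in all 4 preparations of S6 against all 4 of S4. The median over all peaks was 0.19, so that relative to it the change was -2.98. Its input at S6 was 166 ± 83.6 CPM against 194 ± 121 CPM at S4 (SD, n = 4), and its IP level was 25.5 ± 4.97 CPM against 193 ± 30.5 CPM. ACADVL 2101 remained called under each of the 26 other settings, with changes from -3.90 to -2.23.

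ACADVL 1101 was the other peak called (log2 -5.43, SE 1.14, adjusted p = 0.0078). It held 29 and 23 IP reads in H1 and 21 and 9 in MEL1 at S4, and 1 and 2 in H1 and 0 and 0 in MEL1 at S6. The 4 S4 libraries together held 82 reads against 3, a ratio of levels of 43.4 (exact 95% interval 14.4 to 215, counting error only), with 239 and 259 input reads. At both stages this peak lay below its input. Without replicate 1 of H1 at all stages it was not called (adjusted p = 0.13).

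The remaining ACADVL peaks were not called over both lines. Their changes were -2.39 for ACADVL 251 (SE 1.22, adjusted p = 0.27), -0.34 for ACADVL 1951 (SE 1.1, adjusted p = 0.90) and -3.69 for ACADVL 3901 (SE 1.37, adjusted p = 0.12). ACADVL 251 was called without MEL1 S4 replicate 2 (-3.77, adjusted p = 0.088), the library in which it held 538 input reads. ACADVL 3901, which held 16 IP reads at S4 and 2 at S6 in all, was called without H1 S4 replicate 1 (adjusted p = 0.086) or H1 S6 replicate 2 (adjusted p = 0.088), by DESeq2 (adjusted p = 0.030) and with RLE factors (adjusted p = 0.098). Within the lines, ACADVL 251 was called lower in H1 (-3.48, SE 1.13, adjusted p = 0.030) and ACADVL 3901, with no IP read at S6, lower in MEL1 (adjusted p = 0.014). Over all peaks 7.66% were called lower in H1 and 9.99% in MEL1.

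No peak of PLCE1 or TBX3 was called in the fit over both lines. PLCE1 3401 changed by 1.65 (SE 0.96, adjusted p = 0.34), PLCE1 8201 by 2.40 (SE 1.23, adjusted p = 0.27) and PLCE1 1051 by 0.21 (SE 1.06, adjusted p = 0.98). Without MEL1 S4 replicate 1, the library with 145 IP reads of that peak, PLCE1 3401 was called higher at S6 (2.67, adjusted p = 0.086), as it was without both MEL1 S4 preparations (2.65, adjusted p = 0.0997) and with H1 libraries alone (2.06, adjusted p = 0.066). TBX3 1651 changed by -0.15 (SE 0.76, adjusted p = 0.94) and TBX3 5201 by 1.08 (SE 1.41, adjusted p = 0.71). The lines differed in TBX3 5201, which was called higher in H1 (edgeR adjusted p = 0.0090, where 18.3% of all peaks were called higher in H1), from 0 IP reads at S4, and stood at -0.65 in MEL1 (SE 1.38, adjusted p = 0.81). The standard errors of these 5 peaks, from 0.76 to 1.41, were all above the 0.50 of ACADVL 2101.

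**Figure D4:**
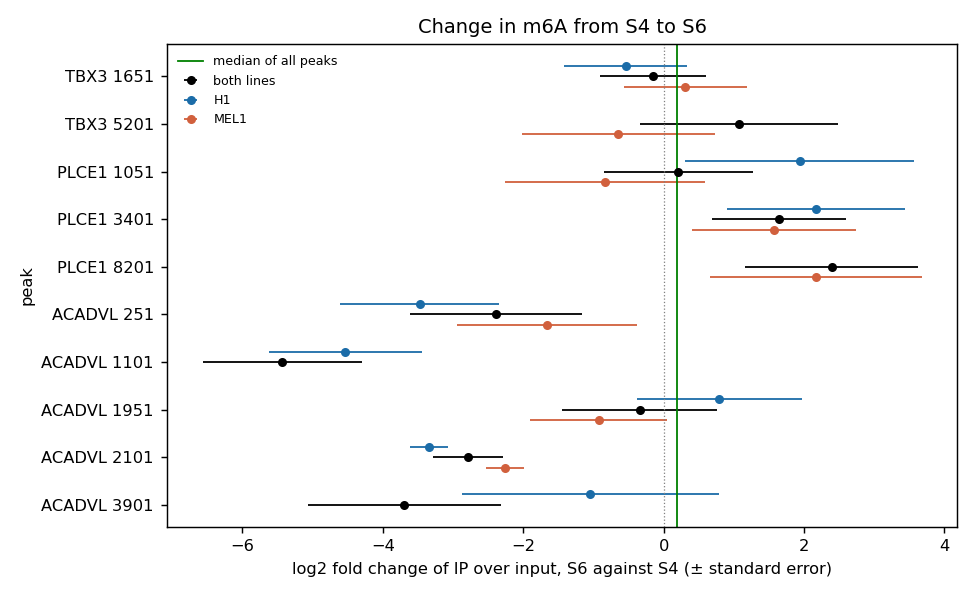
Log2 change of IP over input from S4 to S6 in each peak, with its standard error, fitted over both lines (black) and in each line, and the median of all peaks (green line, at 0.19). A line is left out where its IP or its input reads at S4 or S6 were all 0. ACADVL 2101 lies at -2.79 with the narrowest error of the 10 peaks.

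The fall of ACADVL 2101 was larger in H1 than in MEL1. The log2 change was -3.35 in H1 (SE 0.27) and -2.26 in MEL1 (SE 0.27), and the difference between the lines, MEL1 minus H1, was 1.09 (SE 0.38, adjusted p = 0.052 in edgeR's test of the difference). It and TBX3 5201 (adjusted p = 0.023), which had no IP read in H1 at S4, were the 2 of 10 peaks called for a line difference, where 21.1% of all peaks were called. At S4 the IP level of ACADVL 2101 was 163 to 234 CPM in both lines, while its input was 315 and 279.9 CPM in MEL1 against 101 and 78.5 CPM in H1. After all IP libraries had been thinned to the depth of the shallowest, neither peak was called (adjusted p = 0.20 for ACADVL 2101 and 0.13 for TBX3 5201). For ACADVL 2101 the call was also lost without H1 S4 replicate 1 (adjusted p = 0.14), H1 S6 replicate 1 (0.11), H1 S6 replicate 2 (0.17) or MEL1 S6 replicate 2 (0.21).

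The input of the 3 genes, summed over their peaks, was not called between S4 and S6, where 5.18% of 7973 genes were called (0 of 3 by edgeR, by DESeq2 and at an unadjusted p under 0.05). Log2 changes were -0.52 for TBX3 (SE 0.47, adjusted p = 0.58), -0.33 for PLCE1 (SE 0.54, adjusted p = 0.79) and -0.24 for ACADVL (SE 0.31, adjusted p = 0.73). The median over all genes was -0.03. Nor was any called for a difference between the lines in this change (15.3% of all genes, and 1 of the 3 at an unadjusted p under 0.05), with -0.59 for ACADVL (SE 0.26, adjusted p = 0.13), -1.12 for TBX3 (SE 0.88, adjusted p = 0.43) and -0.67 for PLCE1 (SE 1.08, adjusted p = 0.74). From S0 to S3, given without a test, input changed by 3.54 for TBX3, 2.49 for PLCE1 and 0.70 for ACADVL, and for ACADVL by 0.28 in H1 and 1.34 in MEL1.

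The mean summed input over both lines ranked S3, S4, S6 and S0 from highest to lowest for TBX3 and PLCE1, but in H1 S6 lay slightly above S4 in both (2.21 against 2.07 CPM for TBX3, 1.39 against 1.32 CPM for PLCE1). TBX3 had 5.81 ± 3.76 CPM at S3, 5.26 ± 3.78 CPM at S4, 3.06 ± 1.29 CPM at S6 and 0.490 ± 0.570 CPM at S0 (SD, n = 4 each). PLCE1 had 5.57 ± 4.26 CPM at S3, 3.77 ± 3.36 CPM at S4, 2.65 ± 1.64 CPM at S6 and 0.985 ± 1.52 CPM at S0. In both genes S3, S4 and S6 overlapped within their spread. ACADVL had 298 ± 195 CPM at S4, 240.2 ± 110.4 CPM at S6, 206 ± 63.4 CPM at S3 and 115 ± 15.9 CPM at S0, and S4, S6 and S3 overlapped. In MEL1 the summed input of ACADVL was 98.3 and 105 CPM at S0, 241 and 274 CPM at S3, 409.6 and 513 CPM at S4 and 310.4 and 358 CPM at S6, while in H1 it lay between 105 and 178 CPM at all stages.

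Markers of liver-type endoderm were also highest in MEL1 at S4, as the input of ACADVL was, but from S3 to S6 their share was lower while ACADVL input was higher. The 5 of 9 such markers that had counts took 0.0019% to 0.0020% of MEL1 input reads at S0, 3.77% to 4.09% at S3, 6.50% to 6.74% at S4 and 0.722% to 0.752% at S6. In H1 they took 0.0002% to 0.0004% at S0, 0.051% to 0.0516% at S3, 0.0226% to 0.0261% at S4 and 0.0438% to 0.0463% at S6. The 5 of 10 mesenchyme markers with counts took 0.012% to 0.0125% of MEL1 input reads at S0, 0.0142% to 0.0148% at S3, 0.0651% to 0.071% at S4 and 0.0226% to 0.0234% at S6, which is the order of the stages in ACADVL input in that line. In H1 they took 0.0082% to 0.0132% at S0 to S4 and 0.0296% to 0.0305% at S6. The liver oxidizes fatty acids and expresses ACADVL. The part of liver-type or mesenchyme cells in the ACADVL values was not tested in either line.

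The counts of the gene lists that follow stand against 28.8% of all genes called in input at S3 against S0 and 5.18% at S6 against S4. Of 16 other T-box genes only MGA had a peak, and it was not called in input at S3 against S0 (-0.34, adjusted p = 0.22) or at S6 against S4 (-0.19, adjusted p = 0.69). Of 17 other phospholipase C genes 5 had peaks, of which 0 were called by edgeR at S3 against S0 (1 at an unadjusted p under 0.05) and 1 at S6 against S4, PLCXD1 (log2 1.20, adjusted p = 0.0045), with a median change of -0.16 and -0.33.

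Of 36 other genes of mitochondrial fatty acid oxidation 14 had peaks. At S3 against S0, 2 were called higher and 1 lower, where 15% of all genes were called higher and 13.8% lower, with a median of -0.34. SLC25A20, the carrier of acylcarnitines across the inner mitochondrial membrane, was higher by 2.48 (SE 0.93, adjusted p = 0.045), and PPARA, a nuclear receptor that induces fatty acid oxidation genes in liver, by 1.65 (SE 0.29, adjusted p = 0.00038). ACSL4, which activates long polyunsaturated fatty acids, was lower (-1.62, SE 0.50, adjusted p = 0.018), a call lost without MEL1 replicate 1. At S6 against S4, PPARD was higher (1.35, adjusted p = 0.0087) and ACADSB, the dehydrogenase of short branched chains, lower (-1.54, adjusted p = 0.067), with a median of -0.34. SLC25A20 stood at -2.34 at S6 against S4 (SE 0.94, adjusted p = 0.16). Of 13 m6A writers, erasers and readers with peaks, of 19 listed, only RBM15B, which helps to recruit the writer complex, was called at S3 against S0 (1.09, SE 0.13, adjusted p = 1.6e-05), and 0 were called at S6 against S4 by edgeR (4 at an unadjusted p under 0.05). In that comparison the median of the 13 was -0.24.

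Over the 16 input libraries, the genes whose log2 level was most like that of TBX3 were C4orf19 (Pearson's r = 0.958), SLC35F6 (r = 0.953) and RETREG1 (r = 0.952), among 7718 genes whose mean level reached 1 CPM. For PLCE1 they were STAT2 (r = 0.936), SLC35F6 (r = 0.930) and TBX3 itself (r = 0.920). For ACADVL they were EPS8L2 (r = 0.974), SEMA3B (r = 0.967) and SULT1A4 (r = 0.965), the last of which has a near-identical copy and is uncertain. By Spearman's rank correlation 1 of the 3 genes was kept for TBX3, 0 of 3 for PLCE1 and 2 of 3 for ACADVL. The libraries share stage, line and depth, so these values are a description of likeness.

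Of 14 neighbouring genes only PHF23, near ACADVL, and SLC35G1, near PLCE1, had a merged peak, and neither was called at S3 against S0 (-0.10 and 1.36, adjusted p = 0.59 and 0.30) or S6 against S4 (-0.47 and -1.88, adjusted p = 0.053 and 0.23). In RefSeq (GRCh38.p14), TBX3 overlaps TBX3-AS1, PLCE1 overlaps NOC3L and several noncoding genes and pseudogenes, and ACADVL overlaps DLG4 and MIR324, and none of these had a merged peak of its own. The library kit keeps the strand, but whether the counting used it is not given in the sources used here, so reads of an overlapping antisense gene could be counted in these peaks.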

How the data were processed

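The authors purified mRNA from TRIzol-extracted RNA, sonicated it, pulled down m6A with the EpiMark kit and prepared input and IP libraries with a stranded TruSeq kit. They counted reads in 50-bp bins of Ensembl 94 genes and called and merged peaks with MeRIPtools, and the deposited table holds whole-number read counts per merged peak. The aligner and genome build are not given in the sources used here, so no coordinates or sequences are printed. Depth was 2378881 to 15674899 reads per library, and counting error limits peaks with few reads.

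The members and gene lists were chosen with earlier results of these data known. Counts were fitted with edgeR 4.0.16 in R 4.3.3 (TMM, quasi-likelihood test, Benjamini-Hochberg adjustment over all peaks or genes with at least 10 reads), with stage, library type, their interaction and cell line over 32 libraries, or stage and line over the 16 input libraries for gene sums. Standard errors are the log2 change over the square root of F. Line differences came from fits with a term for each line and stage. Of the 7978 genes, 7938 matched a symbol. Genes named besides the members were the 3 most correlated with each, the list genes called in input, up to 4 per list and comparison, and neighbours with a peak. The authors describe the replicates as independent biological samples, 2 per line. The fits were tested on simulated data. Alternatives were DESeq2 1.42.0, other scalings, filters, blocks, single lines and leaving out libraries. The result of 1 further gene list is not reported here, though its genes are in the counts of list genes called.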

Additional observations from a re-analysis of the deposited data

Results flagged for a closer look

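The change in m6A from S4 to S6 was called as different between the lines in 2 of the 10 peaks, near the 21.1% called over all peaks. In ACADVL 2101 the difference, MEL1 minus H1, was 1.09 on the log2 scale (SE 0.38, edgeR adjusted p = 0.052), with a fall in each line. In TBX3 5201 it was -7.81 (SE 2.29, edgeR adjusted p = 0.023), a fitted value that rests on 0 and 0 IP reads in H1 at S4 and is no bound. Neither was called after the IP libraries had been thinned to 1 depth, with 0.89 (adjusted p = 0.20) and -6.45 (adjusted p = 0.13).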

How the results depend on the processing

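The count of peaks called for the m6A change from S4 to S6, 2 as reported, was 5 in H1 alone (where calls over all 26104 peaks went from 1978 to 10847), 5 without both MEL1 S4 preparations (5022 of all peaks, a setting chosen after seeing the data, as was thinning), with 2 higher and 3 lower in both against 0 and 2 as reported, and 1 to 3 when libraries of a replicate were left out. IP over input at S4, 7 as reported, gave 4 with only the S4 libraries, 8 with separate scaling or thinned libraries and 4 to 7 in leave-outs. At S6, 8 as reported, it gave 10 with separate scaling (16865 of all peaks called, against 16451 as reported). It gave 9 there in H1 alone, with thinned libraries or with only the S6 libraries, and 7 to 8 in leave-outs. The line difference in m6A, 2 as reported, gave 1 with only the compared stages, 0 with thinned IP libraries and 1 to 3 in leave-outs. List genes called in input at S3 against S0, 5 as reported, were 14 in MEL1 alone (3421 of 7876 genes in all, against 2293 of 7973) and 3 to 6 in leave-outs, with 3, all higher, without MEL1 replicate 1. Input of the members at S6 against S4 gave 0 in every setting. With the replicate number as a block the counts were 2, 7, 8, 2, 5 and 0 in the same order, and deviations of same-numbered samples correlated at -0.32 to 0.46 over all pairs, which does not meet the rule that every pair exceed 0.1, though in MEL1 input all 6 pairs were positive (0.064 to 0.145).

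Several changes, most of them not called as reported, turned sign, and the cause was not tested. For the m6A change from S4 to S6, PLCE1 1051 gave -0.29 with DESeq2, -0.26 with RLE factors, -0.12 with separate scaling, -0.39 without the cell line, -0.80 in MEL1 alone, -0.032 with thinned libraries and -1.01 to 0.73 in leave-outs. TBX3 1651 gave 0.039 without the cell line, 0.34 in MEL1 alone and -0.64 to 0.50 in leave-outs, TBX3 5201 gave -0.61 in MEL1 alone, and ACADVL 1951 gave 0.33 with a preparation block, 0.70 in H1 alone, 1.04 without both MEL1 S4 preparations and -0.88 to 1.45 in leave-outs. For IP over input at S4, ACADVL 2101 gave -0.0018 without the cell line, -0.79 in MEL1 alone and -0.15 to 0.84 in leave-outs, TBX3 5201 gave -0.34 with only the S4 libraries, -4.89 in H1 alone and -4.91 without both MEL1 S4 preparations (both called, edgeR adjusted p = 0.012 and 0.011) and -0.88 to 1.91 in leave-outs, and ACADVL 251, called lower as reported, gave 0.15 in H1 alone and 0.058 without both MEL1 S4 preparations. The fitted S3 against S0 change gave 0.45 for ACADVL 3901 and -1.50 for TBX3 5201 in H1 alone, 1.05 for ACADVL 251 in MEL1 alone, and -0.53 to 2.92 for TBX3 5201 and -1.64 to 0.61 for ACADVL 251 in leave-outs. Input at S6 against S4 in H1 alone gave 0.0069 for TBX3, 0.011 for PLCE1 and 0.13 for ACADVL, ACADVL gave 0.51 without both MEL1 S4 preparations and -0.48 to 0.037 in leave-outs, and PLCE1 -0.52 to 0.098. The line difference in leave-outs was -0.049 to 2.82 for TBX3 1651, -7.64 to 2.0 for PLCE1 1051, -5.12 to 4.94 for ACADVL 1951, -1.33 to 1.1 for PLCE1 3401 and -0.025 to 4.00 for ACADVL 251. Mean log2 IP over input of TBX3 5201 was 0.046 at S0 with a prior count of 0.5 and 0.35 at S4 with a prior count of 5. Low counts limit the TBX3 and PLCE1 peaks, which held at most 41 input reads in any library.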

Other observations

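Peak ACADVL 251 took an uneven share of the gene's input reads between the MEL1 replicates, a feature chosen after its values were seen. Its share was 3.97%, 6.13%, 12.6% and 5.53% in the MEL1 libraries of replicate 1 at S0, S3, S4 and S6, and 14.1%, 20.8%, 38.6% and 26.1% in those of replicate 2. In H1 the share was 13.4% to 21.5% in all 8 input libraries. The 2 sets of MEL1 libraries did not overlap, and the input of this peak in MEL1, and with it its IP over input, differs with the replicate used.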
